A study of Mus musculus with 12 samples.

Results

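The 37 genes described here encode the subunits of the integrins and laminins: 26 integrin genes and 11 laminin genes, taken by their symbols out of the 55138 genes with a level in FPKM (fragments scaled for transcript length and library depth). All 37 were found in the count table. The libraries came from gastruloids (small mouse embryonic stem cell aggregates that form germ layers and elongate in culture) grown from the 129/svev line by seeding 300 cells per well and exposing them from 48 h to a 24 h pulse of 3 µM CHIR 99021, an inhibitor of GSK3 that activates Wnt signaling. They were placed in a dextran-PEG hydrogel at 72 h or at 96 h, with a gel concentration of 1.0 mM in some groups and 1.5 mM in the others, left there until 120 h and freed with dextranase, which gave 4 groups of 3 libraries with about 30 pooled gastruloids each. All 4 groups carried the gel and the CHIR 99021 pulse and were harvested at the same time, so the moment of embedding and the length of the stay in the gel cannot be told apart. The study describes its replicates as biological, and the labels do not say more about their source.

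Integrins are cell surface receptors made of an alpha and a beta chain, and the pair decides which matrix protein is bound: RGD motifs in fibronectin, vitronectin or nephronectin, laminins, collagens, or ligands on other cells. Laminins are secreted trimers of an alpha, a beta and a gamma chain and form the first sheet of a basement membrane, on which type IV collagen, nidogen and perlecan assemble. In the gastrulating mouse embryo such sheets underlie the epiblast, and integrins are needed for mesoderm spreading, somite borders and vessel formation.

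Total counts ran between 23011791 and 27609422 over the 12 libraries, and mitochondrial genes held 1.68% to 3.02% of them. The gene CT010467.1 took 6.12% of the counts of 72 h, 1.5 mM replicate 1 and 4.21% of 96 h, 1.5 mM replicate 2, and the counts scaled to depth (CPM) used below were scaled to normalized totals. Replicates of a group differed by far more than counting noise, with no pair alike enough to be a repeat of the same library. Of 6 somite markers the summed FPKM ran from 75.0 to 142 in the 72 h, 1.0 mM libraries and from 292 to 336 in the 96 h, 1.0 mM libraries, so RNA of somite markers was found in both. Of 5 leukocyte markers 2, Ptprc and Csf1r, were at 0 FPKM in every library. The 5 together summed to 3.17 to 4.66 FPKM, and 2 of them had enough counts to be tested for embedding time in each gel.

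The level of the subunit genes spread over a wide range. Itgb1, the beta chain shared by most alpha chains, had the highest mean, 53.4 FPKM over the 12 libraries (43.9 to 64.9). Itgb5, the vitronectin-binding partner of alpha v, followed at 32.6 FPKM (24.9 to 39.8). The laminin chains Lamc1 and Lamb1 had means of 27.9 FPKM (25.5 to 30.1) and 22.0 FPKM (17.4 to 29.7), and both ranges overlapped each other and that of Itgb5, while Itgb1 lay above all of them. The FPKM of Lamc1 did not follow its counts, with 27.5, 30.1 and 28.9 FPKM at 161, 119.5 and 149.7 CPM in the 72 h, 1.0 mM libraries. The level of Lamc1 and its place in this order are thus uncertain. The fibronectin receptor chain Itga5 reached 12.8 FPKM (11.9 to 14.3) and Itga9, which binds tenascin C and other ligands with beta 1, 11.0 FPKM (8.26 to 13.1), with overlapping ranges. These 6 were the members with a mean of at least 10 FPKM.

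**Figure D1:**
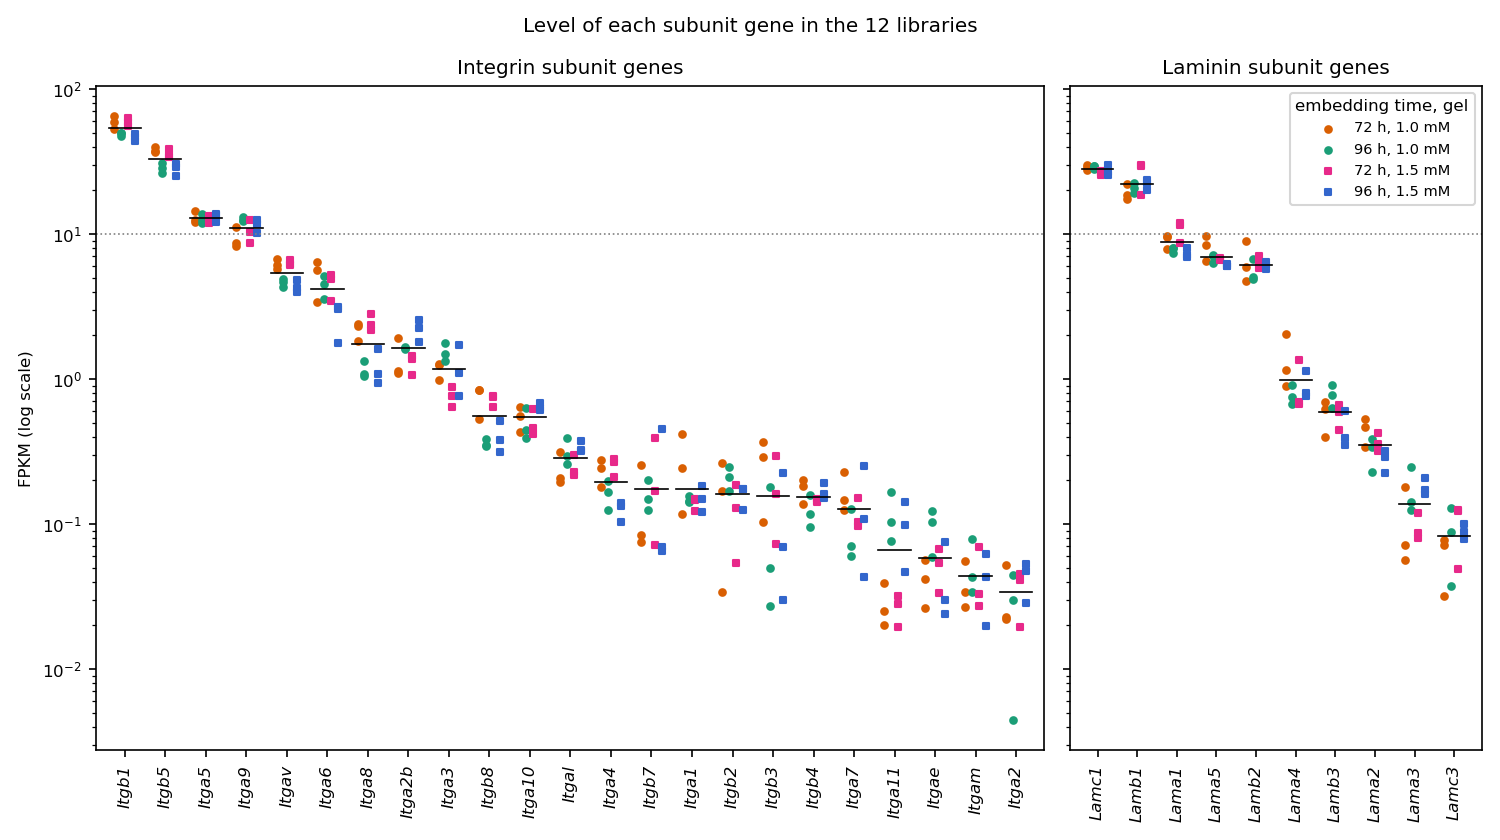
FPKM of 33 subunit genes with a value above 0 in all 12 libraries, on a log scale, with integrins on the left and laminins on the right in order of their mean (black bar). Points are single libraries, coloured by embedding time and gel, and the dotted line marks 10 FPKM, which Itgb1, Itgb5, Itga5, Itga9, Lamc1 and Lamb1 exceeded on average.

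A second tier lay between 1 and 10 FPKM. It held the laminin chains Lama1 (8.74 FPKM), Lama5 (6.96 FPKM) and Lamb2 (6.14 FPKM), the RGD-binding chains Itgav (5.37 FPKM), Itga8 (1.75 FPKM) and Itga2b (1.63 FPKM), and the laminin-binding chains Itga6 (4.18 FPKM) and Itga3 (1.16 FPKM). Lama4, an alpha chain of vessel basement membranes, had a mean of 0.985 FPKM. The remaining members had lower means. The epithelial laminin chains Lama3 and Lamb3 had means of 0.137 and 0.588 FPKM, and the receptor chain Itgb4 0.152 FPKM. Among the leukocyte integrin chains Itgal had a mean of 0.285 FPKM, Itgae of 0.0578 FPKM and Itgam of 0.0440 FPKM. Itgb6 received 3 counts, Itgad 1 count and Itgax 1 count over all 12 libraries. Of the exonic bases of Itgam, 68.7% also lie in exons of another annotated gene on the same strand, and 33.5% of those of Itga10, so their values are uncertain.

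Within each chain family few genes carried most of the summed FPKM. Lamc1 made up 98.9% to 99.7% of the gamma chain sum in every library. Lamb1 made up 69.9% to 80.6% of the beta chain sum, the rest being mainly Lamb2. The alpha chain sum was divided between Lama1, the early embryonic alpha chain, with 39.3% to 60.8%, and Lama5, which is widespread in later epithelia, with 33.6% to 47.9%. In the 72 h, 1.5 mM group Lama1 held 56.8% ± 5.48 (SD, n = 3) and Lama5 35.8% ± 2.71, against 49.8% ± 0.739 and 41.1% ± 1.72 in the 96 h, 1.5 mM group. For 1.0 mM gels the Lama1 share was 47.5% ± 7.25 at 72 h and 49.0% ± 0.936 at 96 h, and Lama5 42.6% ± 5.80 and 43.1% ± 0.235. These shares were not tested between groups.

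The comparison of embedding at 72 h with embedding at 96 h asks whether confinement from an earlier stage changes the adhesion genes. In 1.0 mM gels 32 members had enough counts to be tested and 6 passed an adjusted p of 0.05 (edgeR quasi-likelihood test, Benjamini-Hochberg over 15763 genes): 4 were higher in the 72 h group and 2 lower. The share over all genes tested was 9.24%, with 5.97% higher and 3.27% lower. In 1.5 mM gels, with other libraries on both sides, 10 of 31 members passed, 9 higher and 1 lower, against 19.3% of all genes (10.4% higher and 8.98% lower). Itga8, Itgav, Itgb5 and Itgb8 were called higher in both gels, which is 4 of 6 calls in 1.0 mM and 4 of 10 in 1.5 mM. They are 4 of 30 members tested in both gels, beside 3.44% of 15426 genes called higher in both. No member was called lower in both, beside 2.12% of all genes. The median log2 fold change of the members was 0.22 in 1.0 mM and 0.17 in 1.5 mM, beside -0.01 over all genes tested in either gel. At an unadjusted p below 0.05 there were 13 members in each gel, beside 22.9% and 35.1% of all genes. The libraries of the groups did not overlap for 10 members in 1.0 mM (6 higher, 4 lower) and for 14 in 1.5 mM (10 higher, 4 lower). Over all genes this held for 28.4% (14.6% higher, 13.8% lower) in 1.0 mM and for 39.9% (20% in each direction) in 1.5 mM. As bulk RNA was measured, fewer cells of a type and less RNA per cell cannot be told apart in any of these differences.

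**Figure D2:**
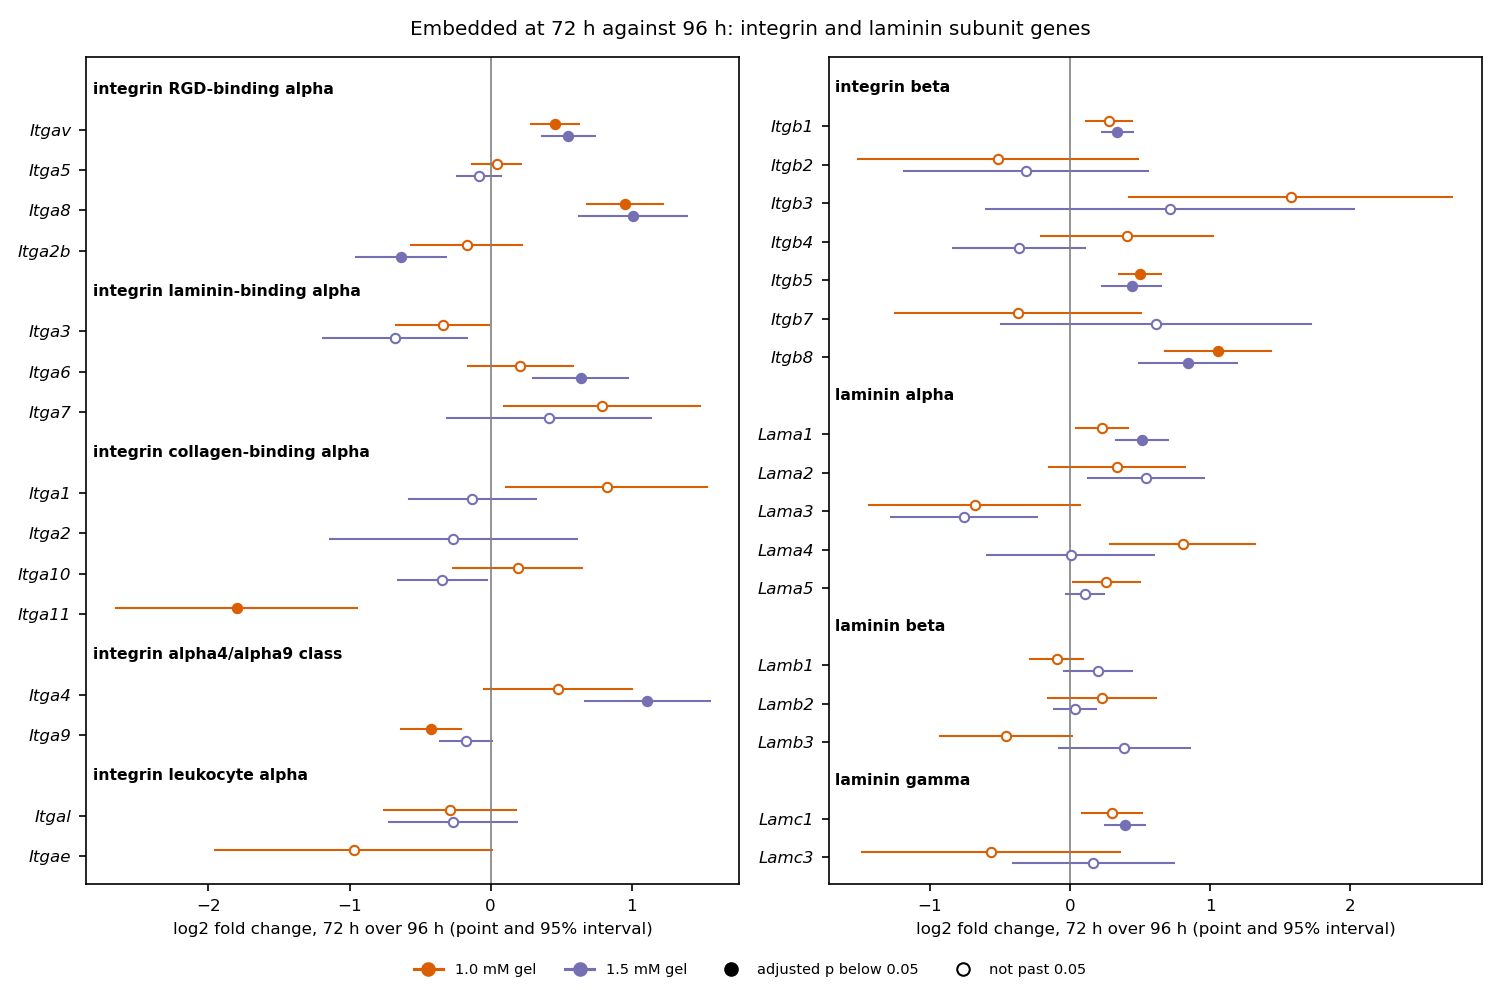
Log2 fold change of 72 h over 96 h embedding for the subunit genes tested, grouped by role, in 1.0 mM gels (orange) and 1.5 mM gels (purple). Bars span 95% intervals (normal) and filled points passed an adjusted p of 0.05. Itgav, Itga8, Itgb5 and Itgb8 are filled on the right of 0 in both gels.

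Start site windows of the 4 genes called in both gels are shown first, because these genes moved together. Each runs from 250 bases before to 50 bases after a RefSeq start site on GRCm38.p6, and capitals mark GGGCGG (a GC box), CCAAT and TATAAA on either strand. The windows are chr2:12301895-12302194 on the minus strand for Itga8, chr2:83724147-83724446 on the plus strand for Itgav, chr16:33829415-33829714 on the plus strand for Itgb5 and chr12:119238227-119238526 on the minus strand for Itgb8.
Itga8: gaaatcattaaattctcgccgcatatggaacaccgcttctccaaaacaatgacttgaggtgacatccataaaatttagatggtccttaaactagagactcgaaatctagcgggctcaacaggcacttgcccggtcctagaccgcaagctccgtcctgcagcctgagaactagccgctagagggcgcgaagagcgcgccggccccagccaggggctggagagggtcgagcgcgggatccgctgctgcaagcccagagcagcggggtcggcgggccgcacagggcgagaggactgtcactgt
Itgav: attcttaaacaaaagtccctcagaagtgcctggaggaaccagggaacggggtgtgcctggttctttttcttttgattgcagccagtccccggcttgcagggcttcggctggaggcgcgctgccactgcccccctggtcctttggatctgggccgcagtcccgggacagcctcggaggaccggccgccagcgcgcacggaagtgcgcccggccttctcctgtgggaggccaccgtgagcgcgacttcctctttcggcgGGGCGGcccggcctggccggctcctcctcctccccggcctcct
Itgb5: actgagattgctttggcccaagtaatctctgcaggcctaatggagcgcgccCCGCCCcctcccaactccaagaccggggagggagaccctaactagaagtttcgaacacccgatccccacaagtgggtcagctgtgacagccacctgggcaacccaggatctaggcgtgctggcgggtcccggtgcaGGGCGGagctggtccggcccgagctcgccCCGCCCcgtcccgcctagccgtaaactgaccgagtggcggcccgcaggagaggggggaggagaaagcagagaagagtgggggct
Itgb8: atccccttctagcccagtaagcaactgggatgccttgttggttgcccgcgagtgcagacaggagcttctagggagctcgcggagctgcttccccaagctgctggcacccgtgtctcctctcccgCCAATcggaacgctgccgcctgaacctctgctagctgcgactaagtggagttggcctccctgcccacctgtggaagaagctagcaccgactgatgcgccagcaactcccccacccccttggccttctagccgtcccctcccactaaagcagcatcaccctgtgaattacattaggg
The start site of the window equals the GENCODE gene start for Itgav and Itgb5, lies 22 bases from it for Itga8 and 526 bases from it for Itgb8. Itgb5 held 3 GC boxes, Itgav 1, and neither Itga8 nor Itgb8 held any in its window, while Itgb8 held 1 CCAAT and none of the 4 held TATAAA. Over the 26 windows found for 23 of the 37 members, GGGCGG occurred in 46.2% and CCAAT in 15.4%, against 35.7% and 37.4% of 32851 windows of all genes. TATAAA occurred in 0 of the 26 and in 13.6% of all. Some of the 26 lie far from the GENCODE gene start, by 105002 bases for Itga9, 94295 for a Lamb3 window and 48950 for an Itgb6 window. Itga3, Itgb6 and Lamb3 also entered more than once, so the member shares are not all from gene starts. The windows of Itga8, Itgav, Itgb5 and Itgb8 had 59.0%, 67.3%, 65.7% and 60.7% G and C, above the median of 52.7% over all windows, and 23, 24, 20 and 13 CpG against a median of 7. Windows of other members ran from 38.3% (Itgb6) to 72.7% (Lama5) G and C and from 1 (Lama2) to 27 (Itgb1) CpG. These contents thus did not set the 4 genes apart from the other members.

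The RGD-binding alpha chains and their beta partners held most of the repeated calls. Itga8, the nephronectin receptor chain known for its part in kidney induction (chr2:12106632-12301922, minus strand), had 17.5, 14.3 and 17.4 CPM in the 72 h, 1.0 mM libraries and 9.47, 8.07 and 7.98 CPM in the 96 h, 1.0 mM libraries. The 1.5 mM libraries gave 23.0, 16.9 and 17.8 CPM at 72 h and 12.4, 8.87 and 7.28 CPM at 96 h. Neither gel showed an overlap between its groups. The fold change was 1.94 in 1.0 mM (log2 0.95 ± 0.14 SE, adjusted p = 0.00180) and 2.01 in 1.5 mM (log2 1.01 ± 0.20, adjusted p = 0.00992) with edgeR. Only the second passed both thresholds that define DE genes here, an adjusted p under 0.05 and an absolute log2 fold change over 1. Such genes were 4.3% of all in 1.0 mM (2.61% higher, 1.69% lower) and 3.18% in 1.5 mM (1.61% higher, 1.57% lower), and 2 members in each gel. Of the exonic bases of Itga8, 5.05% overlap exons of a gene on the opposite strand.

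Itgav, the alpha chain that pairs with several beta chains to bind vitronectin and fibronectin (chr2:83724397-83806916, plus strand), had 58.6, 53.1 and 55.0 CPM against 42.5, 37.8 and 41.5 CPM in 1.0 mM gels. In 1.5 mM gels the values were 65.0, 54.9 and 54.7 CPM against 43.8, 38.4 and 36.6 CPM. All 6 libraries embedded at 72 h lay above all 6 embedded at 96 h. The log2 fold change was 0.46 ± 0.09 (edgeR adjusted p = 0.00754) in 1.0 mM and 0.55 ± 0.10 (adjusted p = 0.00679) in 1.5 mM.

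Itgb5 (chr16:33829665-33949338, plus strand), a beta partner of alpha v, had 139, 125 and 130.2 CPM at 72 h against 97.8, 90.9 and 90.8 CPM at 96 h in 1.0 mM gels. In 1.5 mM gels it had 139.8, 121 and 115 CPM against 95.8, 102.4 and 78.6 CPM. The groups did not overlap in either gel. Log2 fold changes were 0.50 ± 0.08 (edgeR adjusted p = 0.00238) and 0.44 ± 0.11 (adjusted p = 0.0223). Without 96 h, 1.5 mM replicate 3 the 1.5 mM call was lost, with an adjusted p of 0.0720.

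Itgb8, the beta partner of alpha v that binds latent TGF-beta and takes part in its activation (chr12:119158022-119238802, minus strand), was a weakly expressed gene with 9.15, 6.05 and 9.11 CPM at 72 h against 4.10, 3.81 and 3.79 CPM at 96 h in 1.0 mM gels. In 1.5 mM gels it had 7.69, 8.24 and 8.23 CPM against 5.66, 3.69 and 4.05 CPM. No library embedded at 72 h fell to the level of a library embedded at 96 h. The fold change was 2.08 in 1.0 mM (log2 1.06 ± 0.19, edgeR adjusted p = 0.00617), where the gene passed both thresholds, and 1.79 in 1.5 mM (log2 0.84 ± 0.18, adjusted p = 0.0131). The 1.5 mM call was lost without 96 h replicate 2 (adjusted p = 0.0534) and without 96 h replicate 3 (adjusted p = 0.0555).

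Itga5, the other main RGD-binding chain, had log2 fold changes of 0.04 and -0.08 and passed in neither gel. Itga2b, the platelet and early blood progenitor chain, had 9.15, 6.68 and 8.23 CPM at 72 h and 12.5, 10.4 and 14.4 CPM at 96 h in 1.5 mM gels, without overlap. Its log2 fold change there was -0.64 ± 0.16 (edgeR adjusted p = 0.0261), and the call was lost without 72 h replicate 2 (0.0843), 72 h replicate 3 (0.0734), 96 h replicate 1 (0.0596) or 96 h replicate 3 (0.10). In 1.0 mM gels the log2 fold change was -0.17, with overlapping groups. Its usual partner Itgb3 reached at most 0.365 FPKM in a library and passed in neither gel. Of 7 blood and megakaryocyte markers 1 had enough counts in 1.5 mM gels. This was Gata1, which was higher at 72 h (log2 1.93 ± 0.49, edgeR adjusted p = 0.0263). Among the 96 h libraries alone 0 of the 7 markers passed the filter on low counts. Gata1 was thus tested only through the group where it was higher. In 1.5 mM gels the summed FPKM of the 7 markers was 0.254 to 0.432 at 72 h and 0.173 to 0.351 at 96 h. The part of blood-like cells in the Itga2b difference was not tested.

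**Figure D3:**
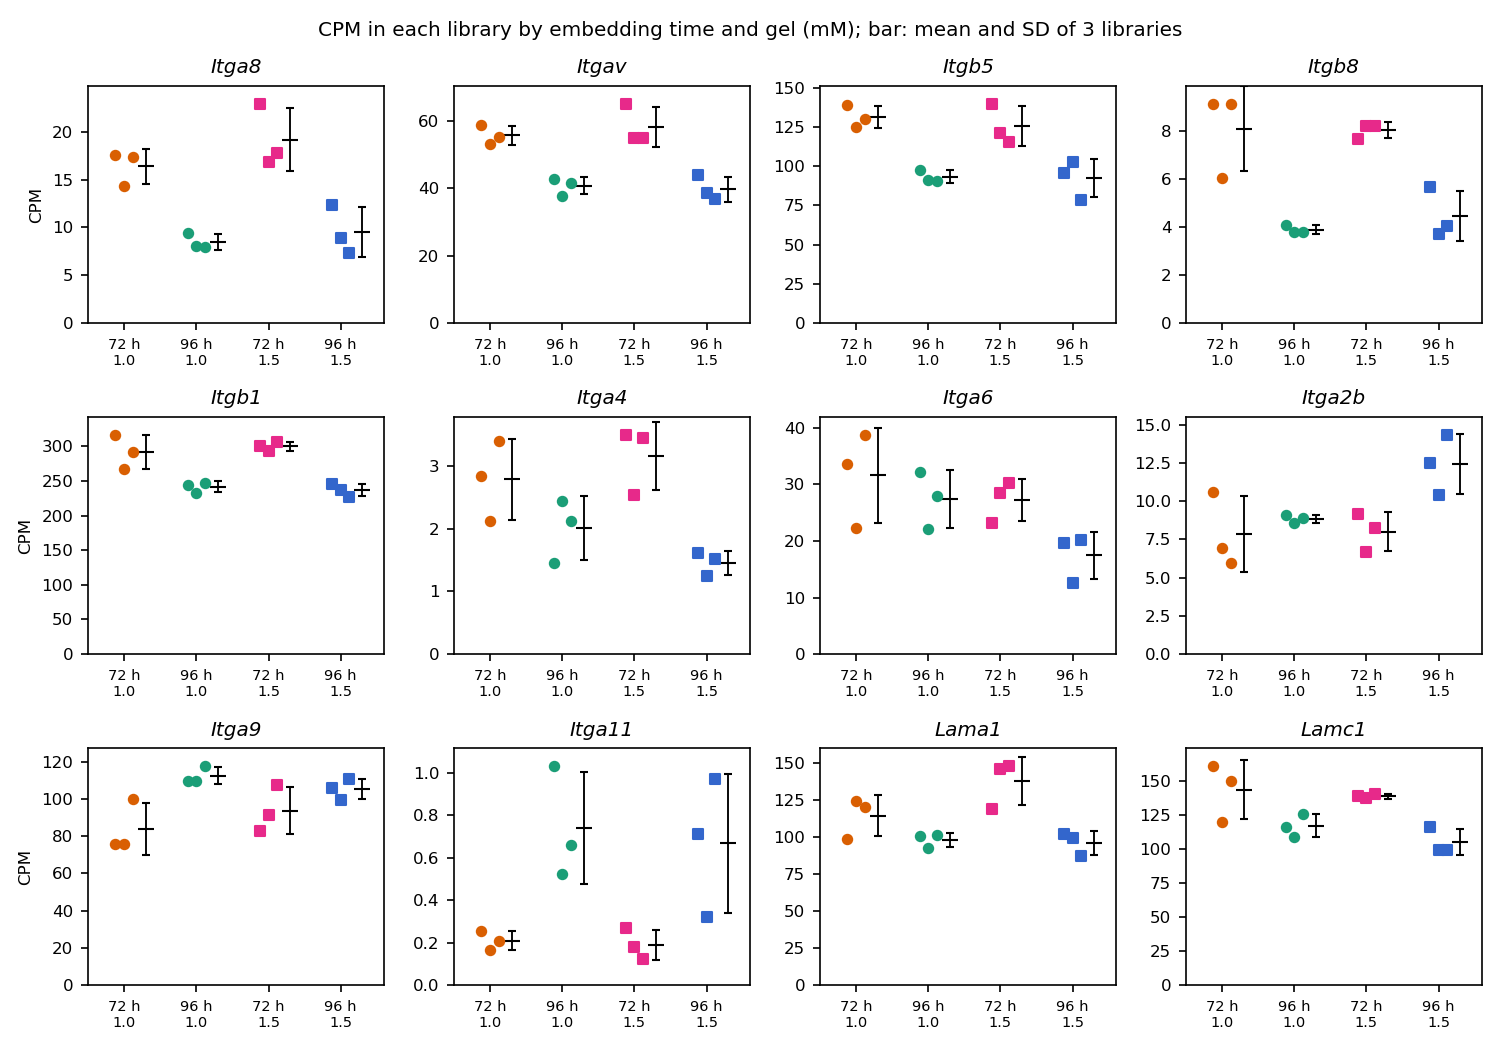
CPM of the 12 subunit genes called in at least 1 gel for embedding time, one point per library, with the mean and SD of the 3 libraries of a group beside them and an axis from 0. For Itga8, Itgav, Itgb5 and Itgb8 the points at 72 h lie above those at 96 h in both gels, and for Itga11 below.

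Itgb1 (chr8:128685654-128733200, plus strand) was higher in the 72 h group by a smaller step. It had 299.8, 293 and 307 CPM at 72 h against 245, 237 and 227 CPM at 96 h in 1.5 mM gels, with a log2 fold change of 0.34 ± 0.06 (edgeR adjusted p = 0.00533). In 1.0 mM gels it had 317, 268 and 291 CPM against 245, 233 and 248 CPM. There the groups did not overlap either, but the log2 fold change of 0.28 ± 0.08 missed the threshold with an adjusted p of 0.0627. It passed with DESeq2 (0.0400), for the same contrast in a model over all 12 libraries (0.0185) and without 72 h, 1.0 mM replicate 2 (0.0235). That library was the lowest of its group. Results for Itgb1 in 1.0 mM under the other alternatives are not listed here.

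Among the laminin-binding chains, Itga6, a main epithelial and stem cell chain (chr2:71786940-71856771, plus strand), had 23.1, 28.5 and 30.3 CPM at 72 h against 19.6, 12.6 and 20.2 CPM at 96 h in 1.5 mM gels. The groups did not overlap, and the log2 fold change was 0.64 ± 0.17 (edgeR adjusted p = 0.0318). The call was lost when any of 72 h replicates 2 and 3 (0.0836 and 0.107) and 96 h replicates 2 and 3 (0.0667 and 0.0506) was left out. In 1.0 mM gels the groups overlapped, with a log2 fold change of 0.21. Itga3 pointed the other way, at -0.34 in 1.0 mM and -0.68 in 1.5 mM, and Itga7, a muscle laminin receptor chain, had 0.79 and 0.41. Neither passed in a gel.

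The class of alpha 4 and alpha 9, which bind VCAM1, fibronectin variants and tenascin C, was split. Itga4 (chr2:79255500-79333123, plus strand) had 3.51, 2.54 and 3.45 CPM at 72 h against 1.61, 1.24 and 1.52 CPM at 96 h in 1.5 mM gels. The groups did not overlap, with a fold change of 2.16 (log2 1.11 ± 0.23, edgeR adjusted p = 0.0112) that passed both thresholds. Without 96 h replicate 2 its adjusted p was 0.0508. In 1.0 mM gels the log2 fold change was 0.48 with overlapping groups. Of its exonic bases 8.04% overlap exons on the opposite strand.

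Itga9 (chr9:118606690-118901003, plus strand) was lower in the 72 h group, with 75.9, 75.7 and 99.9 CPM against 110.0, 110.0 and 118 CPM in 1.0 mM gels. The log2 fold change was -0.42 ± 0.11 (edgeR adjusted p = 0.0320), and leaving out any library but 72 h replicate 3 ended the call, with adjusted p between 0.0740 and 0.129. In 1.5 mM gels it was -0.17, with overlapping groups.

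The collagen-binding chain Itga11, known from fibroblasts and mesenchyme (chr9:62677826-62783982, plus strand), had the largest change among the members called. In 1.0 mM gels and over both gels Itga11 passed the filter on low counts only through 96 h libraries, where it was higher. The size of its change is read with that limit. It had 0.254, 0.163 and 0.208 CPM at 72 h against 1.03, 0.522 and 0.662 CPM at 96 h in 1.0 mM gels, with a log2 fold change of -1.80 ± 0.44 (edgeR adjusted p = 0.0250). These are few reads, with at most 27 counts in a library, and the call was lost without 72 h replicate 2 (0.0716), 72 h replicate 3 (0.0723), 96 h replicate 1 (0.110) or 96 h replicate 3 (0.0696). With DESeq2 the adjusted p was 0.0722. The 1.5 mM libraries gave 0.267, 0.178 and 0.122 CPM against 0.712, 0.321 and 0.974 CPM, again without overlap. It did not pass the filter on low counts there, while the 1.5 mM contrast of a model over all 12 libraries, with 4 group means, gave -1.81 ± 0.50 (adjusted p = 0.0245). Itga1, Itga2 and Itga10 were called in neither gel.

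Of the laminin chains 0 of 11 passed in 1.0 mM gels with edgeR (3 at an unadjusted p below 0.05), 0 with limma-voom and 1, Lama4, with DESeq2 (adjusted p = 0.0187). In 1.5 mM gels Lama1 and Lamc1 passed. Lama1 (chr17:67697259-67822647, plus strand) had 119, 146 and 148 CPM at 72 h against 102.2, 99.3 and 86.9 CPM at 96 h, with a log2 fold change of 0.51 ± 0.10 (edgeR adjusted p = 0.00817). In 1.0 mM gels its groups overlapped, with a log2 fold change of 0.23 ± 0.10 (adjusted p = 0.182).

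Lamc1 (chr1:153218922-153332786, minus strand) had 139, 137 and 140.4 CPM at 72 h against 116, 99.6 and 99.5 CPM at 96 h in 1.5 mM gels. Its log2 fold change was 0.39 ± 0.07 (edgeR adjusted p = 0.00806). Its deposited FPKM did not follow the counts. They averaged 26.3 ± 0.726 (SD, n = 3) at 72 h and 27.5 ± 2.27 at 96 h, and the log2 fold change on the log2(FPKM + 1) scale was -0.06 (limma adjusted p = 0.69). The cause of this difference between the 2 tables was not tested. The exons of Lamc1 overlap no other annotated gene. The beta chains Lamb1, Lamb2 and Lamb3 passed in neither gel, with log2 fold changes of -0.10, 0.23 and -0.46 in 1.0 mM and 0.20, 0.04 and 0.39 in 1.5 mM.

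In a joint fit of all 12 libraries with gel as a term, which reuses the libraries above, 15 of 33 members passed for embedding time, 10 higher and 5 lower at 72 h, against 31.1% of 16388 genes (16.2% higher, 14.8% lower). Only Itga11, admitted by the count filter through its 96 h libraries, also passed an absolute log2 fold change of 1 (log2 -1.81 ± 0.33, edgeR adjusted p = 0.00104). Over all genes this held for 4.66% (2.36% higher, 2.29% lower). The members called here but not in a single gel were Itga3 (log2 -0.50 ± 0.16, edgeR adjusted p = 0.0306), Lama2, the muscle and nerve alpha chain (0.43 ± 0.16, adjusted p = 0.0462), and Lama3 (-0.72 ± 0.23, adjusted p = 0.0299). All 6 libraries embedded at 72 h were above all 6 embedded at 96 h for Itga8, Itgav, Itgb1, Itgb5 and Itgb8, and below for Itga11. That is 6 of 33 members, beside 11.8% of all genes tested (6.47% higher, 5.36% lower). The calls of Itga8, Itgav, Itgb1, Itgb5, Itgb8, Itga4, Itga9, Itga11, Lama1 and Lamc1 held whichever library was left out of this fit. For Lama2, Lama3, Itga3, Itga6 and Itga2b leaving out each of at least 6 of the 12 libraries ended the call, with adjusted p up to 0.112.

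Some marker genes of cell types moved with embedding time beside these subunits. Over all genes tested, 9.24% were called in 1.0 mM (5.97% higher, 3.27% lower) and 19.3% in 1.5 mM (10.4% higher, 8.98% lower). Against these shares a single call in a short list is not read as a change of the cell type. Of 6 pluripotency and germ cell markers 5 were tested, and all 5 were lower at 72 h in each gel, with summed FPKM of 18.4 to 23.6 against 80.6 to 116 in 1.0 mM and 15.8 to 22.1 against 66.3 to 74.6 in 1.5 mM. Of 6 cardiac mesoderm markers 6 were higher in 1.0 mM and 3 in 1.5 mM, with sums of 109 to 270 against 10.3 to 44.5 FPKM and 69.1 to 163 against 41.1 to 76.9 FPKM. Of 6 somite markers 6 were lower in 1.0 mM and 4 in 1.5 mM, the sums in 1.5 mM being 87.3 to 179 against 220.5 to 308 FPKM. The extraembryonic endoderm markers summed to 29.3 to 38.4 against 9.61 to 13.6 FPKM in 1.0 mM and to 25.0 to 34.5 against 14.7 to 20.1 FPKM in 1.5 mM, with Gata6 alone at 6.53 to 27.8 FPKM, Cubn at most at 0.0655 FPKM and Afp at 0. Called higher were 3 of 6 tested in 1.0 mM and 1 of 5 in 1.5 mM. The log2 fold change was negative for 1 and 2 of them, and 0 were called lower. Of 7 endothelial markers 1 was higher and 2 lower in 1.0 mM and 1 lower in 1.5 mM, and the groups overlapped in 1.0 mM, with sums of 54.1 to 67.0 against 61.8 to 63.6 FPKM, and in 1.5 mM, with 49.7 to 70.4 against 64.7 to 84.2 FPKM. The posterior and neuromesodermal markers summed to 89.5 to 113 against 43.1 to 63.3 FPKM in 1.0 mM and to 67.5 to 90.8 against 38.4 to 41.6 FPKM in 1.5 mM, without overlap, while of 4 tested 1 was higher and 1 lower in 1.0 mM and 1 higher in 1.5 mM. Of the neural tube markers 2 of 5 were higher and 1 lower in 1.0 mM, and 1 of 4 higher and 1 lower in 1.5 mM, with overlapping sums of 13.4 to 19.2 FPKM over all groups. Of 4 presomitic markers tested 1 was lower in 1.0 mM and 1 higher in 1.5 mM. Of 6 endoderm and epithelium markers 1 was higher in 1.0 mM, and 1 was higher and 1 lower in 1.5 mM. The part of these cell types in the subunit differences was not tested.

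The matrix partners of laminin were read from a list of 20 basement membrane genes, of which 18 were tested. In each gel 6 were higher at 72 h by edgeR and the other 12 did not pass, beside 5.97% of all genes higher in 1.0 mM and 10.4% in 1.5 mM. Col4a6, a type IV collagen chain, had log2 fold changes of 1.28 ± 0.24 (adjusted p = 0.00791) in 1.0 mM, past both thresholds, and 0.88 ± 0.20 (0.0159) in 1.5 mM. Its CPM were 27.9, 16.2 and 13.3 against 9.35, 7.35 and 7.06 in 1.0 mM gels. Fras1, Frem1 and Frem2, which form the Fraser complex below embryonic epithelia, rose together, with log2 fold changes of 0.58, 0.77 and 0.86 in 1.0 mM and 0.64, 0.73 and 0.84 in 1.5 mM. Dag1, the laminin receptor dystroglycan, had 0.42 and 0.66 and also passed in both. The main network genes Col4a1 and Nid1 did not pass, at 0.01 ± 0.14 and 0.05 ± 0.19 in 1.0 mM and 0.16 ± 0.09 and 0.09 ± 0.16 in 1.5 mM.

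**Figure D4:**
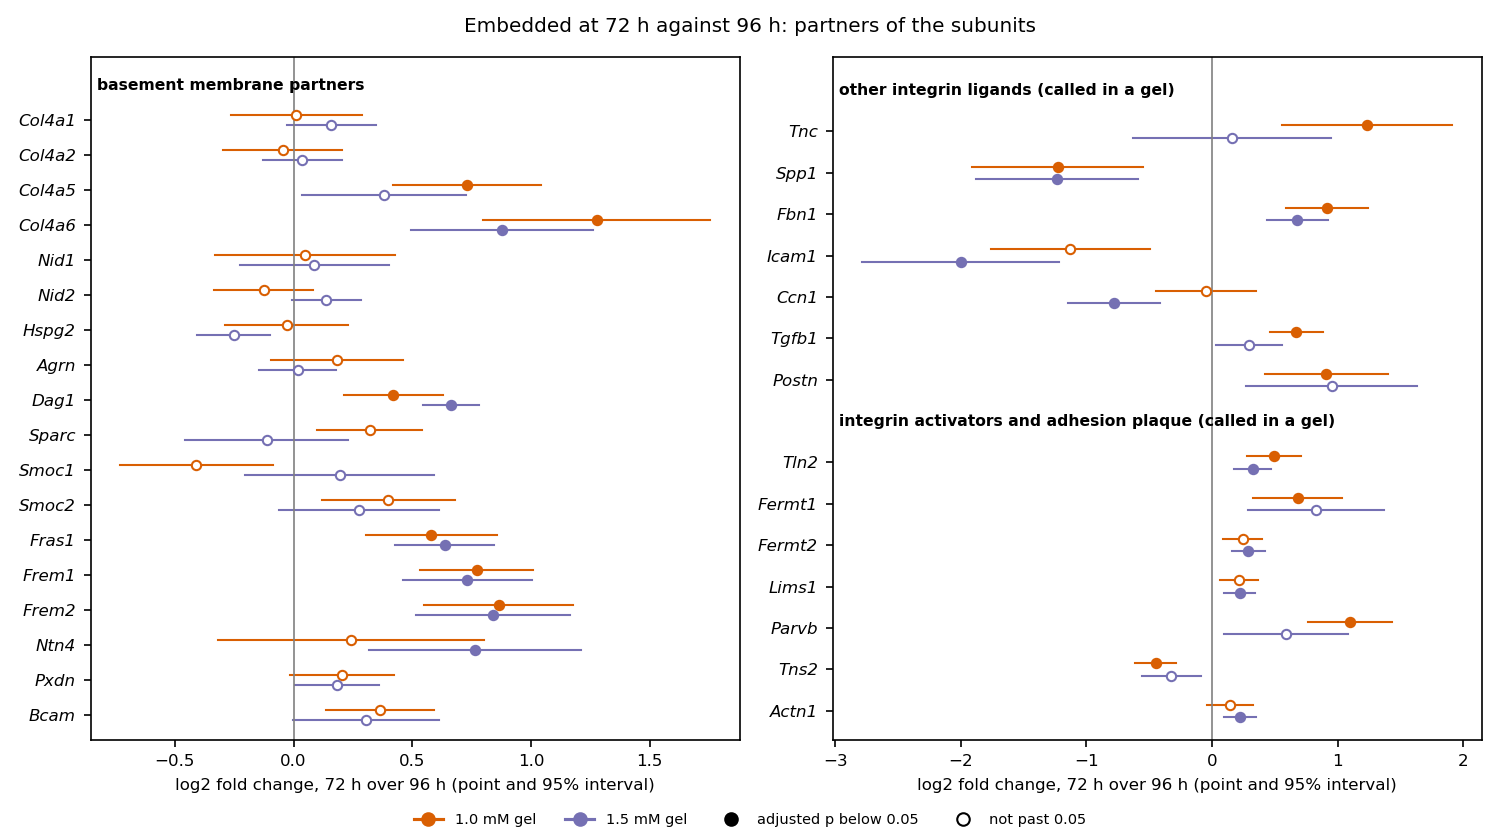
Log2 fold change of 72 h over 96 h embedding for the 18 basement membrane genes tested (left) and for the integrin ligands and adhesion plaque genes called in at least 1 gel (right), in 1.0 mM (orange) and 1.5 mM (purple). Bars span 95% intervals (normal) and filled points passed an adjusted p of 0.05. Col4a6, Dag1, Fras1, Frem1 and Frem2 are filled in both gels, all higher at 72 h.

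Of 20 other integrin ligands 17 were tested, with 4 higher and 1 lower in 1.0 mM and 1 higher and 3 lower in 1.5 mM, beside 9.24% and 19.3% of all genes called. Spp1, the secreted RGD protein osteopontin, had 0.678, 0.572 and 0.832 CPM at 72 h against 1.69, 2.21 and 1.03 CPM at 96 h in 1.0 mM gels. Its log2 fold change was -1.23 ± 0.35 (edgeR adjusted p = 0.0498) in 1.0 mM and -1.23 ± 0.33 (0.0298) in 1.5 mM. Icam1, the ligand of leukocyte integrins, was lower in 1.5 mM at -2.0 ± 0.40 (0.0107), from at most 1.46 CPM. At that level and fold change it was admitted by the count filter through the 96 h libraries, where it was higher. The size of its change is read with that limit. Tnc, tenascin C and a ligand of alpha 9 and alpha 8 integrins, was higher in 1.0 mM gels at 1.24 ± 0.35 (0.0477).

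Fn1, fibronectin, was the most abundant ligand, at 97.1 FPKM ± 24.3 (SD, n = 3) in the 72 h, 1.0 mM group and 74.7 FPKM ± 11.6 in the 96 h, 1.0 mM group. It passed in neither gel (log2 0.40 ± 0.16, edgeR adjusted p = 0.170, and 0.26 ± 0.13, adjusted p = 0.193) and in the joint fit had 0.33 ± 0.12 (adjusted p = 0.0439). Npnt, the main ligand of alpha 8, had log2 fold changes of 0.30 ± 0.27 and -0.26 ± 0.28 and did not pass. Of 25 genes for integrin activators and the adhesion plaque 24 were tested, with 3 higher and 1 lower in 1.0 mM and 4 higher in 1.5 mM, beside 9.24% and 19.3% of all genes called in either direction. Parvb, a parvin that links integrin-linked kinase to actin, passed both thresholds in 1.0 mM at 1.10 ± 0.17 (adjusted p = 0.00275). Tln2, a talin, passed in both gels at 0.49 ± 0.11 (0.0167) and 0.33 ± 0.08 (0.0181).

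The comparison of 1.5 mM with 1.0 mM gels asks whether a more concentrated gel changes the same genes. Of 30 members tested at 72 h 0 passed with edgeR (3 had an unadjusted p below 0.05, beside 6.9% of all genes), and of 33 tested at 96 h 0 passed (4 unadjusted, beside 9.95%). The shares over all genes were 0% at both times in these edgeR fits. Limma-voom called 0 members at each time, and DESeq2 called 0 at 72 h and 1 at 96 h. With the replicate number as a block in edgeR, Itga6 and Lamb3 were called at 96 h. The shares of all genes called with DESeq2 and with the block are not given here. These calls are therefore not read as particular to the members. Across both embedding times 0 of 33 passed with edgeR (4 unadjusted, beside 12.7% of all genes), where 0.0305% of all genes passed, and 0 with DESeq2 and with limma-voom. Groups did not overlap for 3 members at 72 h (1 higher, 2 lower in 1.5 mM) and for 4 at 96 h (2 higher, 2 lower). The shares over all genes were 11.1% (5.97% higher, 5.11% lower) and 15.5% (7.46% higher, 8.08% lower). Across both times 0 members were without overlap, beside 0.476% of all genes.

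**Figure D5:**
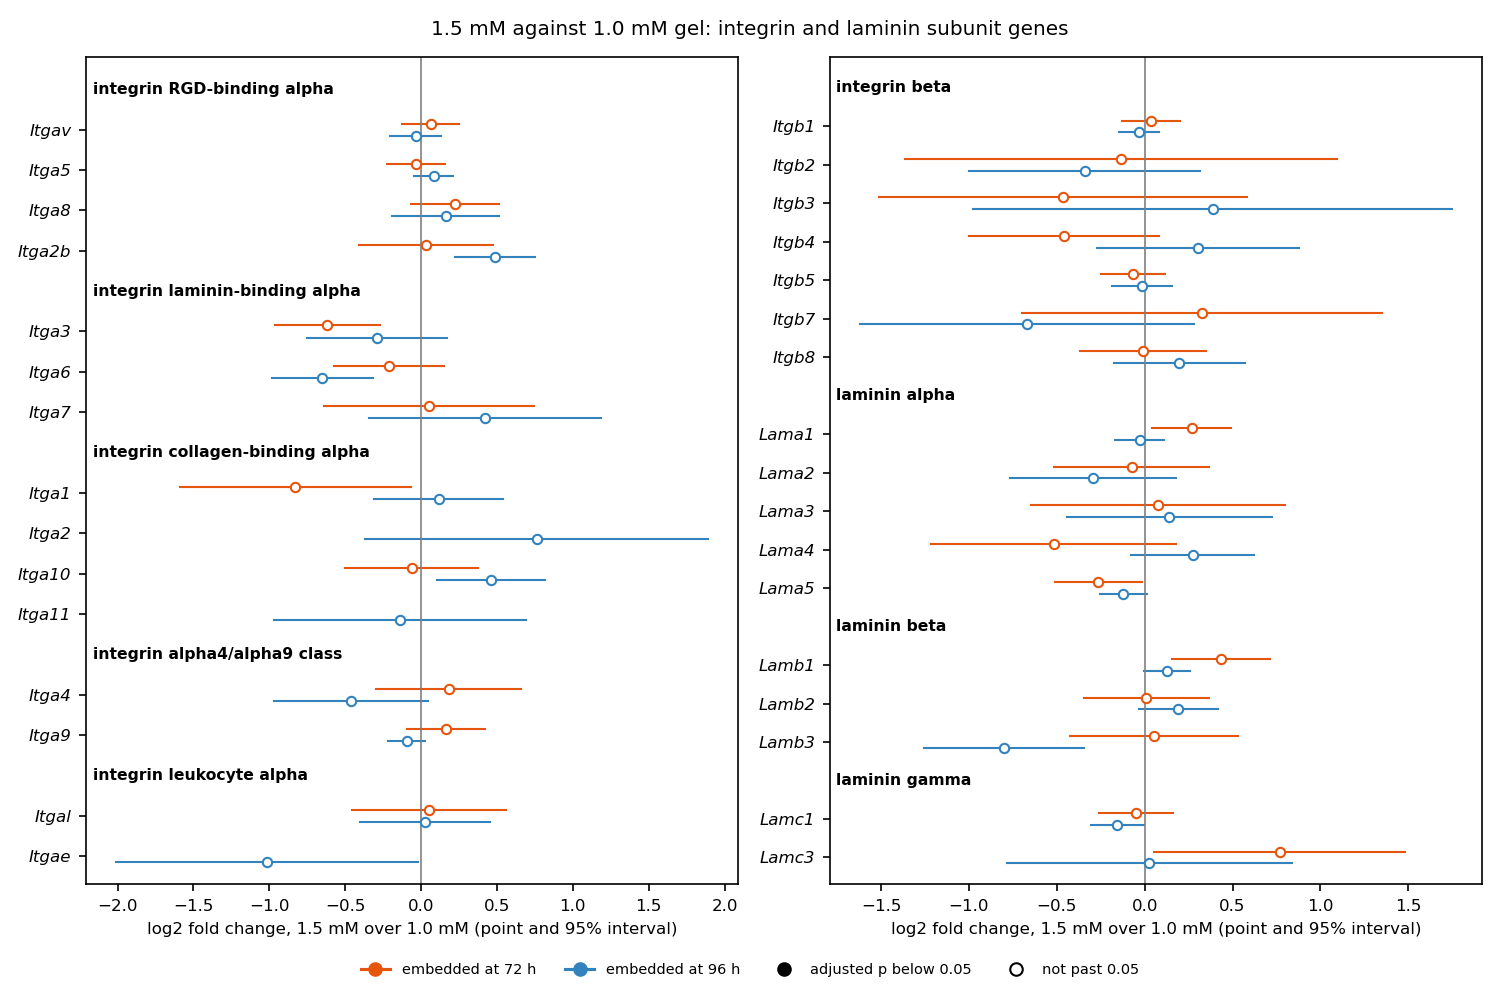
Log2 fold change of 1.5 mM over 1.0 mM gels for the subunit genes tested, by role, in gastruloids embedded at 72 h (orange) and at 96 h (blue). Bars span 95% intervals (normal), and no point is filled because none passed an adjusted p of 0.05. Itga6 (-0.65) and Lamb3 (-0.80) at 96 h and Itga3 (-0.62) at 72 h are examples left of 0 with bars that do not cross it, and Itga2b (0.49) and Itga10 (0.46) at 96 h and Lamb1 (0.43) and Lama1 (0.27) at 72 h are examples on the right.

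Itgb1, the member with most reads, had a log2 difference of 0.04 (95% interval -0.13 to 0.20) at 72 h and -0.03 (-0.15 to 0.08) at 96 h, and Lamc1 one of -0.05 (-0.26 to 0.16) and -0.16 (-0.30 to -0.01). For Lamc1 at 96 h the unadjusted p of the edgeR F test was 0.0639, so the normal interval is narrower than that test allows. The gene DESeq2 called at 96 h was Itga6, with 19.6, 12.6 and 20.2 CPM in 1.5 mM gels against 32.2, 22.1 and 28.0 CPM in 1.0 mM gels and no overlap. Its log2 fold change was -0.65 ± 0.17, with an adjusted p of 0.255 in edgeR and 0.0170 in DESeq2. Lamb3 at 96 h had 3.22, 1.97 and 1.99 CPM against 4.79, 3.37 and 4.38 CPM, without overlap and with a log2 fold change of -0.80 ± 0.23 (edgeR adjusted p = 0.303). Itga2b at 96 h had 12.5, 10.4 and 14.4 CPM in 1.5 mM gels against 9.08, 8.59 and 8.90 CPM in 1.0 mM gels, without overlap and with a log2 fold change of 0.49 ± 0.13 (edgeR adjusted p = 0.286). For Itga10 the log2 fold change at 96 h was 0.46 ± 0.18 (adjusted p = 0.451), also without overlap. Lamb1 at 72 h had 152, 223 and 218 CPM in 1.5 mM gels against 163, 135 and 141 CPM in 1.0 mM gels. Its groups overlapped through 1.5 mM replicate 1, and the log2 fold change was 0.43 ± 0.14 (edgeR adjusted p = 0.698).

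The difference between the 2 time effects was tested as an interaction of embedding time and gel. Of 33 members 0 passed with edgeR (1, Lamb3, had an unadjusted p below 0.05, beside 4.32% of all genes), and 0 with DESeq2 and with limma-voom, beside 0% of 16388 genes. Calls made in a single gel, such as those of Lama1, Lamc1, Itgb1, Itga4 and Itga6 in 1.5 mM, are therefore not shown to differ from the other gel. For Lama1 the interaction was 0.30 ± 0.14 and for Itga6 0.44 ± 0.29 on the log2 scale (edgeR adjusted p = 0.953 for both).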

How the data were processed

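RNA of 12 gastruloid libraries (4 groups of 3, polyadenylated RNA, paired reads of 75 bp) was sequenced by the authors. Per the submitters' processing notes reads were trimmed with cutadapt 4.4, aligned to mm10 with STAR 2.7.10b and quantified with Cufflinks 2.2.1.3. The deposited table of counts per gene holds whole reads without normalization, while the deposited FPKM were computed by the authors with Cufflinks. The methods name STAR as the source of the counts and the table's name refers to HTSeq, and the strand setting of the counting was not given in the sources used here. A table of the authors' own comparisons (log2 fold changes and adjusted p-values) was not used.

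The 37 members and the lists of partner and marker genes were chosen with earlier results of these data known. Genes were tested on the whole count table, without 36 mitochondrial genes, with edgeR 4.0.16 in R 4.3.3 (TMM totals, filterByExpr at its default count limits, 10 per library and 15 in total, quasi-likelihood F test, two-sided, Benjamini-Hochberg over all genes tested). Log2 fold changes are those of the edgeR fit and are positive where the 72 h group or the 1.5 mM group was higher. Errors after ± are SE for log2 fold changes and SD elsewhere. Intervals of 95% are normal intervals from the SE. They make no allowance for the few libraries and can be narrower than the F test allows. Levels were compared between genes in FPKM and between libraries in CPM. Totals of 23011791 to 27609422 counts per library set the counting precision, so genes below about 1 CPM rest on few reads. Samples were grouped by their labels. Full statistics are given for members past an adjusted p of 0.05 in a pairwise comparison, levels for members with a mean of at least 10 FPKM, and of the partner lists for genes past both thresholds besides Col4a1, Nid1 and Fn1. The values of 1 member are not reported here, while counts over the members include it. Other genes with values were named after their values were seen. Alternatives were DESeq2 1.42.0, limma-voom (limma 3.58.1), other filters and normalizations, a replicate block, limma on FPKM and leaving out each library.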

Additional observations from a re-analysis of the deposited data

How the results depend on the processing

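The number of members called for embedding time was 6 in 1.0 mM, 10 in 1.5 mM and 15 over both gels. DESeq2 gave 7, 11 and 15, and limma-voom 6, 10 and 12. Without the filter on low counts 11 were called in 1.0 mM. Limma on log2(FPKM + 1) called 2, 4 and 8, on log2(FPKM + 0.1) 2, 3 and 8, and on log2(FPKM + 1) without a filter 0, 0 and 8. At an adjusted p below 0.01 edgeR called 5 in 1.5 mM and 9 over both gels. Leaving out a library gave 4 (without 96 h replicate 3) to 9 (without 72 h replicate 2) in 1.0 mM, 6 (without 96 h replicate 3) to 13 (without 72 h replicate 1) in 1.5 mM, and 10 to 14 over both gels. For the gels, 0 members became 1 at 72 h (Lamb1), 3 at 96 h and 3 over both times without the filter on low counts, and 1 at 96 h with DESeq2. Leaving out any library left 0 at either time. The shares of all genes called under these alternatives are not given here. The counts thus do not show whether a setting moved the members apart from other genes.

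The labels do not say what a replicate number shares. The deviations of same-numbered replicates correlated positively in 12 of 12 pairs (0.0456 to 0.302), over 0.1 in 8, and 10 of 12 correlated best with their own number. Same-numbered replicates thus resembled each other to a small degree. The main fits left the number out because not every pair passed 0.1, so the calls depend on that choice. A shared source of the numbers was not tested. With the number as a replicate block 10 members were called in 1.0 mM, 11 in 1.5 mM and 17 over both gels, and for the gels 0 at 72 h and 2 at 96 h (Itga6 and Lamb3). The shares of all genes called with this block are not given here, so these counts have no background beside them.

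Of 627 values of called members under an alternative, 492 kept direction and call, 129 kept the direction without the call and 6 reversed. All 6 were Lamc1 on FPKM, with log2 fold changes in 1.5 mM of -0.0572 on log2(FPKM + 1) with or without a filter and -0.0590 on log2(FPKM + 0.1), and over both gels of -0.0323 and -0.0334. The cause was not tested. Members below about 1 CPM, such as Itga11, are limited by depth.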

Other observations

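Some members followed the replicate number across groups, which was noticed after their values were seen. Among 31 members with a mean count of at least 10, Itga5, Itga8, Itgav, Itgb3 and Lama4 were highest in replicate 1 in all 4 groups. These 5 are 16.1% of the members, beside 6.44% of 16388 genes. Itgb3, the beta chain of platelet and vascular integrins, had 2.67, 0.776 and 2.16 CPM in the 72 h, 1.0 mM libraries and 1.3, 0.201 and 0.368 CPM in the 96 h, 1.0 mM libraries. The 1.5 mM libraries gave 2.35, 1.20 and 0.527 CPM at 72 h and 1.69, 0.241 and 0.506 CPM at 96 h. Replicate 1 stood above the others in each group. Lama4 had 15.9, 7.07 and 9.03 CPM at 72 h and 7.17, 5.22 and 5.99 CPM at 96 h in 1.0 mM gels. Itga3 and Itga9 were highest in replicate 3 in all 4 groups, as were 389 of all genes. The labels do not say what the replicate numbers share.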
